A study of Mus musculus with 721 samples.

Results

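The expression of 9 genes that move, make, break down or sense retinoids was followed through the first days of mouse development. The genes are Rbp4, Crabp2, Rdh10, Aldh1a2, Aldh1a3, Dhrs3, Cyp26a1, Rara and Rarg. They were taken by symbol from a count table of 24483 gene rows, and each symbol had exactly 1 row. The table holds 721 sequenced wells of dissociated wild-type C57Bl/6Babr embryos, called cells here, at embryonic day 3.5 (E3.5, 99 cells), E4.5 (105 cells), E5.5 (267 cells) and E6.5 (250 cells, of which 82 carry the title E6.75). Read from the titles, these come from 10, 5, 9 and 13 embryos, and the embryo is the replicate. At E6.5, embryos numbered 1 and 2 occur both on plate P1 and without a plate name and were taken as different animals. The study itself gives a smaller number of embryos in all. Between 9 and 67 wells per stage are labelled double rather than single, trophoblast cells had been removed by the authors, and only autosomes are in the table. No embryo was treated or mutated, and plate names recur between stages without showing whether a plate was shared, so stage and plate cannot be told apart.

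Retinol, the alcohol form of vitamin A, travels outside cells on RBP4, which in blood is itself held by transthyretin. Inside cells RDH10 oxidizes retinol to retinal, DHRS3 reduces retinal back to retinol, and ALDH1A2 or ALDH1A3 turns retinal into retinoic acid. CRABP2 delivers retinoic acid to the nuclear receptors RARA and RARG, which act on DNA together with RXR partners, and CYP26A1 oxidizes retinoic acid for removal. In embryos this pathway is best known for patterning of the body axis, with CYP26 enzymes keeping chosen regions free of retinoic acid.

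Cells were divided into classes by clustering within each stage, with all 9 genes and the other retinoid genes kept out of the clustering. E4.5 gave 29 epiblast-like and 76 primitive endoderm-like (PrE-like) cells, E5.5 gave 259 epiblast-like and 8 endoderm-like cells, and E6.5 gave 180 epiblast-like, 45 endoderm-like and 25 primitive streak-like cells. All 19 endoderm markers had a row, and their summed level was 13350 to 21950 counts scaled to a library total of 1000000 (CPM) in E4.5 PrE-like cells against 1588 to 5305 in E4.5 epiblast-like cells. At E6.5 the sum was 9345 to 23460 CPM in endoderm-like and 633 to 3354 CPM in epiblast-like cells. All 16 epiblast markers were detected in E4.5 PrE-like cells, at a summed 6343 to 9341 CPM against 14120 to 19150 in E4.5 epiblast-like cells. Depth ran from 66896 to 3792936 counts per cell, with a median of 692900. For testing, counts were added up over the cells of 1 class from 1 embryo, if there were 3 or more, which gave 10 sums at E3.5, 5 of each class at E4.5, 8 epiblast-like sums at E5.5, and 13 epiblast-like and 8 endoderm-like sums at E6.5. The E6.5 classes were joined from clusters that follow the plate names. The epiblast-like class holds a cluster of 96 cells, all on plates P1 to P3, and one of 84 cells, of which 83 have no plate name and which was separated from the cluster that also held the streak-like cells. The endoderm-like class holds 32 cells on plates P1 to P3 and 13 cells without a plate name, each in a cluster of its own. E5.5 endoderm-like and primitive streak-like cells gave a single sum each and were not tested. In such sums, fewer expressing cells and less RNA per cell cannot be told apart.

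The promoter of Cyp26a1, which was called in 5 of the comparisons made, is shown because it holds a retinoic acid response element, the paired half-site that RAR and RXR bind. The 110 bases lie at chr19:37697688-37697797 (+ strand, RefSeq, GRCm38.p6), directly upstream of the gene, and capitals mark the element, 17 bases long and 32 to 16 bases before the RefSeq start.
Cyp26a1 promoter: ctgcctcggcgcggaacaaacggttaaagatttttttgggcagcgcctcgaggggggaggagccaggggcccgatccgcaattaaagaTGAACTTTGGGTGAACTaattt
Read on the other strand, the element is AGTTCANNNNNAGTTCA, a direct repeat with 5 bases between its copies. On both strands, that string is in 8 of 32851 promoters of 300 bases (0.0244%), and any element of the DR5 type is in 32 of them (0.0974%). The 13 promoters listed for Dhrs3, Aldh1a2, Rara, Rarg, Cyp26a1 and Rbp4 held 1 DR5 element, that of Cyp26a1, and none held an element of the DR2 or DR1 type. A match is a string of letters and not evidence of binding in these cells.

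Between neighbouring stages and between lineages, 8 of the 9 genes could be tested, since Aldh1a2 did not pass the filter on low counts. Each comparison used edgeR's quasi-likelihood test over 13654 genes with Benjamini-Hochberg adjustment, and a gene was called if its adjusted p did not exceed 0.05 and its log2 fold change was over 1 (over 2 between the E4.5 lineages). Of the 8 genes, 4 were called between E4.5 PrE-like and epiblast-like cells (6.06% of all genes were), 5 between E4.5 epiblast-like and E3.5 cells (20.4%) and 4 between E4.5 PrE-like and E3.5 cells (18.9%). Between E5.5 and E4.5 epiblast-like cells none was called (5.5%), although 2 had an unadjusted p under 0.05, and DESeq2 called 1, Rbp4. In the later comparisons, 2 were called from E5.5 to E6.5 within the epiblast-like class (8.23%), 4 between E6.5 endoderm-like and epiblast-like cells (14.7%) and 4 between E6.5 endoderm-like and E4.5 PrE-like cells (12.3%). Groups that did not overlap at all were counted in the same way. Among the 8 genes these were 3 between the E4.5 lineages (13.2% of all genes), 3 between E4.5 epiblast-like and E3.5 cells (7.35%), 2 between E5.5 and E4.5 epiblast-like cells (10.8%), 2 between the E6.5 lineages (0.952%) and 2 between E6.5 endoderm-like and E4.5 PrE-like cells (6.69%). There was no such gene between E4.5 PrE-like and E3.5 cells (8.85%) or from E5.5 to E6.5 in the epiblast-like class (2.22%). The median log2 fold change of the 8 genes was -0.63 between the E4.5 lineages (0.04 over all genes) and 0.45 between the E6.5 lineages (-0.18 over all genes).

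**Figure D1:**
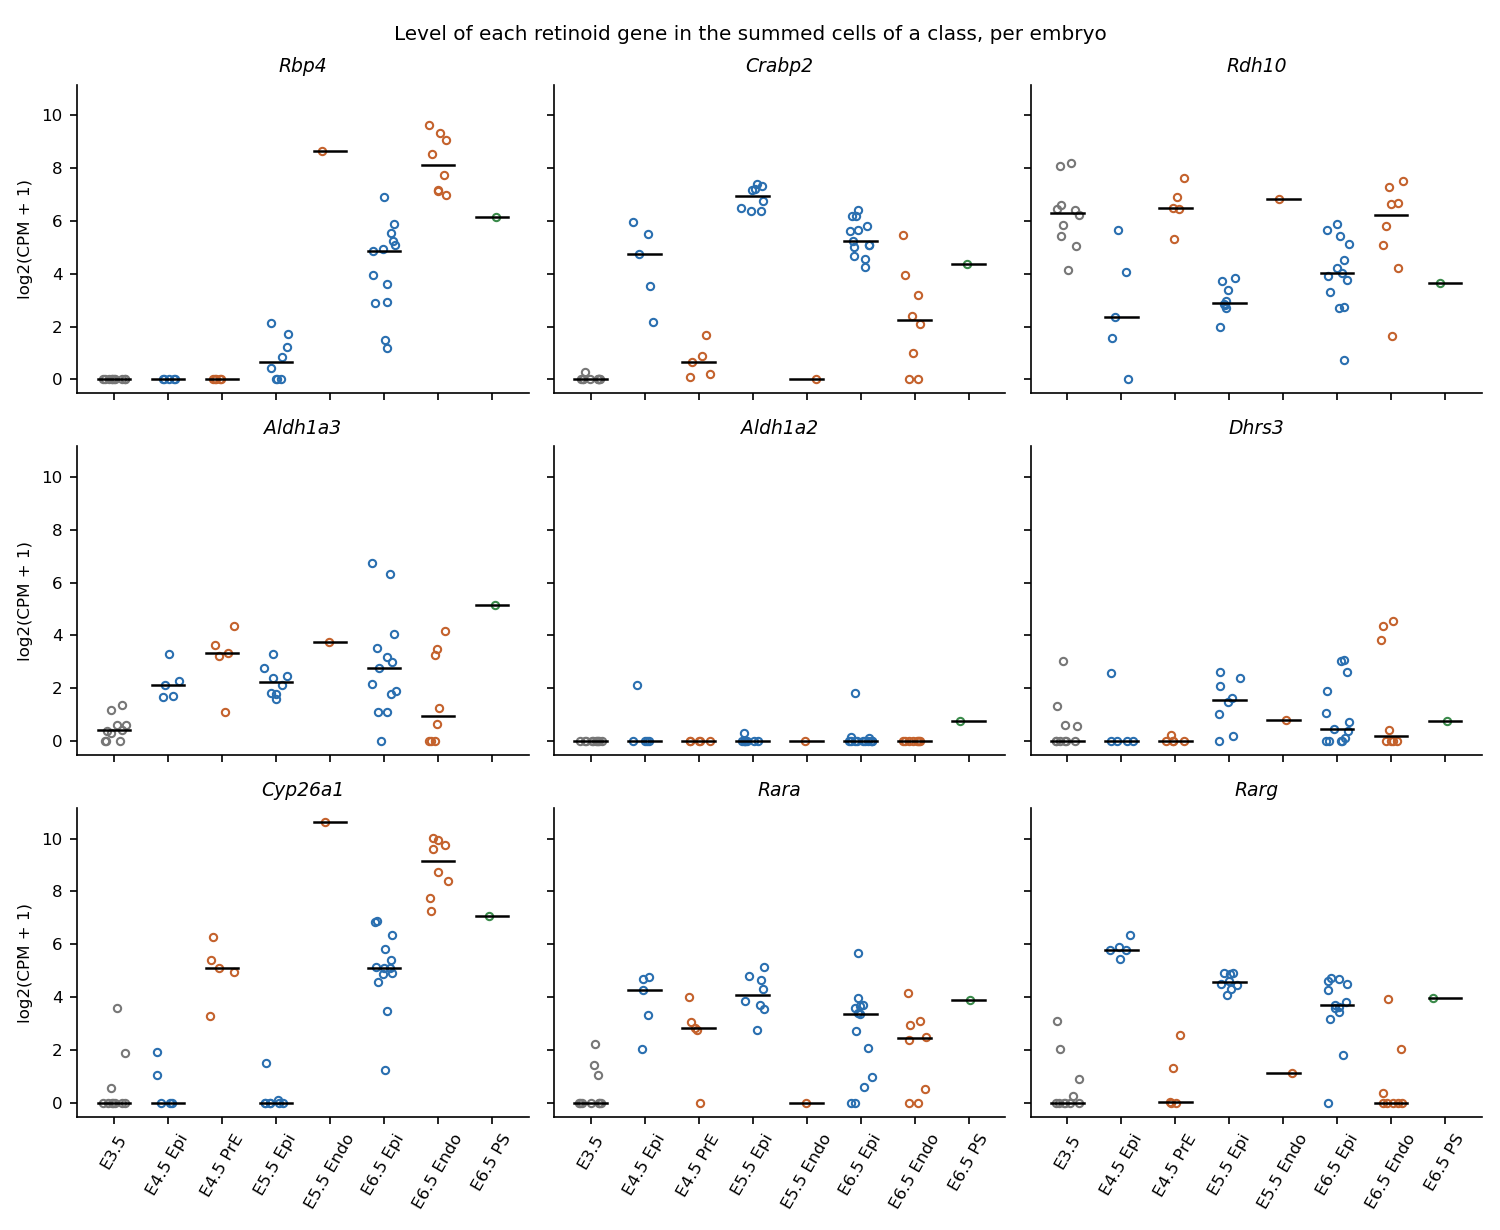
Level of each of the 9 genes as log2(CPM + 1), 1 point per embryo sum and a bar at the median, in the 8 classes of cells (grey, E3.5; blue, epiblast-like; orange, PrE-like or endoderm-like; green, primitive streak-like). Rbp4 was at 0 in all sums of E3.5 and E4.5, Crabp2 and Rarg were high in the epiblast-like sums, and Cyp26a1 was highest in the endoderm-like sums.

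Rbp4, the secreted retinol carrier, had no count at E3.5 and E4.5 and was high in endoderm-like cells at E5.5 and E6.5. Its row (chr19:38116629-38125281, - strand) held 0 counts in all 20 sums of E3.5 and E4.5. In the 8 E5.5 epiblast-like sums it stood at 0 to 3.35 CPM with a median of 0.582, and 3 sums were at 0. In the single E5.5 endoderm-like sum it reached 397.9 CPM, and all 8 cells of that class had at least 10 CPM.

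At E6.5, Rbp4 spanned 1.29 to 119 CPM in the 13 epiblast-like sums (median 27.7) and 126 to 785 CPM in the 8 endoderm-like sums (median 289). The endoderm-like sums without a plate name held 525 to 785 CPM, and those on plates P1 to P3 126 to 370 CPM. Every endoderm-like sum was above every epiblast-like sum. Between these lineages the log2 fold change was 3.61 ± 0.70 (SE; edgeR's quasi-likelihood test, adjusted p = 6.377e-04). Against E4.5 PrE-like cells, which held no Rbp4 count, the level in E6.5 endoderm-like cells was at least 7467-fold higher, with 3 counts over the PrE-like sums as the floor (edgeR, adjusted p = 8.117e-07). Within E6.5 batches the lineage difference was 3.19 on plates P1 to P3 (edgeR, adjusted p = 0.0357) and 3.72 among embryos with no plate name (edgeR, adjusted p = 0.104), and with sums of at least 6 cells only it was 2.23 (edgeR, adjusted p = 0.29).

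Rbp4 also rose within the epiblast-like class between E5.5 and E6.5, from a mean of 1.01 ± 1.24 CPM (SD, n = 8) to 29.9 ± 32.0 CPM (SD, n = 13). The log2 fold change was 4.87 ± 0.88 (edgeR's quasi-likelihood test, adjusted p = 2.248e-04), and the groups overlapped in 2 of the 13 E6.5 sums. Within batches it was 4.40 with plates P1 to P3 only and 5.58 with embryos without a plate name only (edgeR, adjusted p = 0.00289 and 0.00183). At 10 CPM or more, the share of cells went from 7 of 259 (2.7%, exact 95% interval 1.09 to 5.49%) to 64 of 180 (35.6%, 28.6 to 43.0%). The summed endoderm markers of the same sums were 598 to 911 CPM at E5.5, with Sox7 at 0. At E6.5 they were 633 to 3354 CPM, with none of the 19 at 0. The E6.5 sum with the highest Rbp4, 119 CPM in embryo 2 without a plate name, held 3354 CPM of these markers. The one with the lowest, 1.29 CPM in embryo 2 of plate P1, held 1008 CPM. Embryo 9 of plate P3, with 3031 CPM of them, held 27.7 CPM of Rbp4. The part of these markers in the result was not tested.

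Crabp2, the intracellular carrier of retinoic acid, was higher in the epiblast than in the endoderm lineage at E4.5 and E6.5. At E3.5 the row (chr3:87948666-87953376, + strand) held 2 counts in all, from 1 embryo. At E4.5 the 5 epiblast-like sums stood at 60.4, 44.2, 10.5, 3.52 and 25.4 CPM, and the PrE-like sums of the same 5 embryos at 0.592, 0.872, 2.21, 0.165 and 0.0565 CPM. The epiblast-like sum was the higher one in all 5 embryos, and the 2 lineages did not overlap. Crabp2 was lower in PrE-like cells with a log2 fold change of -5.30 ± 1.02 (edgeR, adjusted p = 4.649e-04), and higher in E4.5 epiblast-like than in E3.5 cells by 9.37 ± 0.99 (edgeR, adjusted p = 3.354e-10). PrE-like cells, low as they were, exceeded E3.5 cells by 4.07 ± 1.04 (edgeR, adjusted p = 0.003443; 0.0777 with single wells only).

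After implantation the 8 E5.5 epiblast-like sums held 80.7 to 165 CPM of Crabp2 (median 124), all above the E4.5 range, but the log2 difference of 2.07 ± 0.81 did not pass the adjusted threshold (edgeR, adjusted p = 0.1187). Crabp2 was at 10 CPM or more in 222 of 259 E5.5 epiblast-like cells (85.7%, exact 95% interval 80.9 to 89.7%), against 16 of 29 at E4.5 (55.2%, 35.7 to 73.6%) and 103 of 180 at E6.5 (57.2%, 49.6 to 64.6%). E6.5 epiblast-like sums held 17.8 to 83.7 CPM (median 36.6), a log2 difference of -1.44 ± 0.57 from E5.5 (edgeR, adjusted p = 0.1033). Per kilobase of exon, Crabp2 had the highest mean level of the 9 genes in the epiblast-like classes of E4.5 (21.8 CPM per kb), E5.5 (91.4) and E6.5 (33.6).

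In E6.5 endoderm-like cells Crabp2 ranged from 0 to 43.0 CPM with a median of 3.73. The highest sum, 43.0 CPM, belonged to embryo 1 without a plate name, and the next was 14.3 CPM. The log2 fold change against E6.5 epiblast-like cells was -2.25 ± 0.65 (edgeR, adjusted p = 0.01294), and against E4.5 PrE-like cells it was 3.68 ± 0.92 (edgeR, adjusted p = 0.005103). The first of these was -3.64 on plates P1 to P3 (edgeR, adjusted p = 0.00615) but -0.87 among embryos without a plate name (edgeR, adjusted p = 0.638). It missed the threshold when cells titled E6.75 were left out (-2.08, edgeR, adjusted p = 0.0639) and with sums of at least 1 cell (-1.16, edgeR, adjusted p = 0.191). The second had an adjusted p of up to 0.178 over the alternatives tried (edgeR).

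Rdh10, which catalyses the first oxidation of retinol, was already found in most cells at E3.5. Its row (chr1:16105774-16133734, + strand) ranged from 16.5 to 288 CPM over the 10 E3.5 sums (median 78.7), and 69 of 99 cells had at least 10 CPM. At E4.5 the PrE-like sums held 88.9, 87.2, 38.9, 118 and 193 CPM, and the epiblast-like sums of the same embryos 4.18, 0, 15.5, 1.93 and 49.1 CPM. In each embryo the PrE-like sum was the higher, although the lineages overlapped between embryos.

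Rdh10 thus differed between E4.5 lineages by 2.87 ± 0.90 on the log2 scale (edgeR, adjusted p = 0.03765), and it was lower in E4.5 epiblast-like than in E3.5 cells by -2.86 ± 0.84 (edgeR, adjusted p = 0.01068). In PrE-like cells its mean, 105 ± 56.8 CPM (SD, n = 5), was near the 104 ± 94.9 CPM of E3.5 (SD, n = 10), with a log2 difference of 0.02 ± 0.72 (edgeR, adjusted p = 1). The call between E4.5 lineages was lost when embryo 1, 2, 3 or 4 was left out (edgeR, adjusted p = 0.118, 0.0985, 0.0683 and 0.136), and with wells labelled single only both Rdh10 calls were lost (edgeR, adjusted p = 0.174 between lineages and 0.248 against E3.5).

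At E6.5, endoderm-like sums of Rdh10 spanned 2.1 to 182 CPM (median 77.0) and epiblast-like sums 0.647 to 58.1 CPM (median 15.3), with a log2 fold change of 1.87 ± 0.58 (edgeR, adjusted p = 0.02123). The embryos titled E6.75 had the 2 highest endoderm-like sums, 182 and 154 CPM. Without the cells titled E6.75 the value was 1.11 (edgeR, adjusted p = 0.28). On plates P1 to P3 alone it was 0.74 (edgeR, adjusted p = 0.559), and without either E6.75 embryo the adjusted p was 0.0875 or 0.0655 (edgeR). With the embryo as a block over the 8 pairs of sums it was 2.52 (edgeR, adjusted p = 0.0967).

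Of the aldehyde dehydrogenases that make retinoic acid, Aldh1a2 was nearly absent at this depth and Aldh1a3 was above its E3.5 level in both E4.5 lineages. Aldh1a2 (chr9:71215789-71296243, + strand, overlapped by the pseudogene Gm48124 on the other strand, which unstranded counts cannot separate) had at least 10 CPM in only 4 of 721 cells. It had no count in the 45 E6.5 endoderm-like cells, and its highest sum was 3.34 CPM. In the 25 primitive streak-like cells 1 cell had at least 10 CPM.

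Aldh1a3 (chr7:66390890-66427517, - strand) stood at 0 to 1.56 CPM in E3.5 sums. At E4.5 its epiblast-like sums held 2.28, 8.85, 2.22, 3.34 and 3.79 CPM and its PrE-like sums 11.4, 19.6, 9.03, 8.36 and 1.13 CPM. Both lineages were above E3.5, by a log2 fold change of 2.99 ± 1.10 in epiblast-like cells (edgeR, adjusted p = 0.04269) and 4.27 ± 1.12 in PrE-like cells (edgeR, adjusted p = 0.004129), and the lineages differed by 1.28 ± 1.30 (edgeR, adjusted p = 0.6477). The rise in epiblast-like cells was called in only 2 of the 15 fits that leave out 1 embryo, with adjusted p up to 0.127 (edgeR, without E4.5 embryo 2), and with sums of at least 6 cells its adjusted p was 0.31.

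At E6.5, Aldh1a3 varied among embryos within both the epiblast-like and the endoderm-like class. On plates P1 to P3 the 9 epiblast-like sums held 0 to 8.11 CPM. The E6.5 embryos without a plate name held 10.5 and 15.8 CPM, and the embryos titled E6.75, also without a plate name, 79.2 and 107 CPM. The 4 sums without a plate name were all above the 9 with one, and the 2 from E6.75 were highest. The log2 fold change was 3.91 ± 1.05 (edgeR's quasi-likelihood test over 14101 genes, adjusted p = 0.04844). Aldh1a3 was the only 1 of the 8 genes called in this comparison (0.986% of all genes were), and the only one whose groups did not overlap (2.31%). Without the E6.75 cells the difference was 1.91 (edgeR, adjusted p = 0.663), and the call was kept in only 2 of the 13 fits that leave out 1 embryo. Both E6.75 embryos lack a plate name, and among embryos titled E6.5 the means were 13.2 CPM (n = 2) without and 3.53 CPM (n = 9) with one. The summed streak markers were 152 to 310 CPM (median 198, 10 of 10 detected) in the 4 sums without a plate name and 22.8 to 514 CPM (median 166, 9 of 10 detected) in the 9 with one. The part of these markers, and of the clusters that follow the plate names, in the result was not tested. The primitive streak-like sum, 25 cells of E6.5 embryo 2 without a plate name, held 34.4 CPM, and 21 of the 25 cells had at least 10 CPM. Endoderm-like sums without a plate name held 8.58 to 16.7 CPM, and those on plates P1 to P3 held 0 to 1.405 CPM, without overlap. This split of the endoderm-like sums was not tested. With both batches pooled they held 0 to 16.7 CPM, and their log2 difference from epiblast-like sums was -2.0 ± 0.99 (edgeR, adjusted p = 0.1546).

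**Figure D2:**
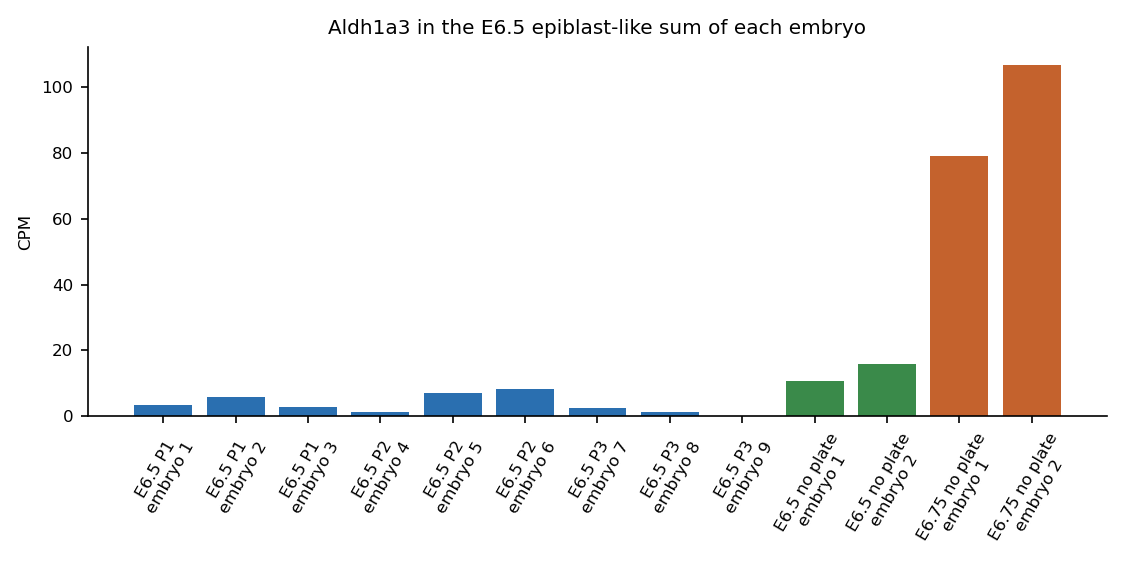
Aldh1a3 in CPM in the 13 E6.5 epiblast-like sums, 1 bar per embryo (blue, plates P1 to P3; green, titled E6.5 without a plate name; orange, titled E6.75). The 9 plate sums stay at or under 8.11 CPM, and the embryos titled E6.75 reach 79.2 and 107 CPM.

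Dhrs3, which returns retinal to retinol, was low in most sums. Its row (chr4:144892827-144928209, + strand) gave a mean of 0.967 CPM at E3.5, 2.21 in E5.5 epiblast-like cells and 1.93 in E6.5 epiblast-like cells. In E6.5 endoderm-like cells 3 sums held 13.2, 19.4 and 22.1 CPM while the other 5 were at or under 0.335 CPM. Against E4.5 PrE-like cells, with 1 count in all, the log2 fold change was 7.45 ± 2.51 (edgeR, adjusted p = 0.03885). This call was lost in 7 of 13 fits that leave out 1 embryo (E4.5 embryos 1, 2, 4 and 5, embryo 2 of plate P1, embryo 5 of plate P2 and embryo 8 of plate P3 at E6.5; highest adjusted p = 0.0877 in edgeR) and with single wells only (edgeR, adjusted p = 0.0689).

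Cyp26a1, which clears retinoic acid, was higher in the endoderm than in the epiblast lineage at E4.5 and E6.5, and rose in the epiblast-like class between E5.5 and E6.5. Its row (chr19:37697798-37701536, + strand) lies 415 kb from Rbp4, with 3 protein-coding genes between them. At E4.5 the PrE-like sums held 76.9, 30.1, 8.85, 33.0 and 41.2 CPM and the epiblast-like sums 0, 0, 2.77, 1.06 and 0 CPM. The lineages did not overlap, and in all 5 embryos the PrE-like sum was the higher one, with a log2 fold change of 5.53 ± 1.36 (edgeR, adjusted p = 0.007146), with an adjusted p of 0.0502 when embryo 1 was left out. At the level of cells, 26 of 76 PrE-like cells (34.2%, exact 95% interval 23.7 to 46.0%) and 1 of 29 epiblast-like cells (3.45%, 0.0873 to 17.8%) had at least 10 CPM. PrE-like cells also exceeded E3.5 cells, where 7 of 10 sums were at 0, by 4.46 ± 0.92 (edgeR, adjusted p = 2.92e-04).

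Cyp26a1 in E6.5 endoderm-like sums ranged from 151 to 1044 CPM (median 599.6) and in epiblast-like sums from 1.35 to 117 CPM (median 33.4). No endoderm-like sum was as low as any epiblast-like sum, and all 45 endoderm-like cells had at least 10 CPM. The log2 fold change between these lineages was 3.70 ± 0.75 (edgeR, adjusted p = 5.734e-04). Compared with E4.5 PrE-like cells, E6.5 endoderm-like cells were higher by 3.98 ± 1.12 (edgeR, adjusted p = 0.01324), again without overlap. Within E6.5 batches the lineage difference was 3.99 on plates P1 to P3 (edgeR, adjusted p = 0.00861) and 2.81 among embryos without a plate name (edgeR, adjusted p = 0.334). The single E5.5 endoderm-like sum held 1576 CPM, above all 8 sums of E6.5.

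Within the epiblast-like class, Cyp26a1 went from 0 in 6 of 8 sums at E5.5, with a highest value of 1.85 CPM, to 1.35 CPM or more in all 13 sums at E6.5. The lowest E6.5 sum was that of embryo 9 of plate P3 and was the only one inside the E5.5 range. The log2 fold change was 7.69 ± 1.11 (edgeR, adjusted p = 2.814e-06), and it was 7.81 with plates P1 to P3 only and 7.31 with embryos without a plate name only (edgeR, adjusted p = 8.35e-06 and 0.00118). The summed endoderm markers were 598 to 911 CPM at E5.5 and 633 to 3354 CPM at E6.5. The E6.5 sum with the lowest Cyp26a1, 1.35 CPM, held 3031 CPM of these markers. The one with the highest, 117 CPM in embryo 6 of plate P2, held 633 CPM of them. The sums next below it, 115 and 79.8 CPM in embryos 1 and 3 of plate P1, held 2019 and 2306 CPM of them. Primitive streak markers summed to 14.8 to 73.5 CPM in E5.5 and 22.8 to 514 CPM in E6.5 epiblast-like sums. The part of either list in the result was not tested.

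**Figure D3:**
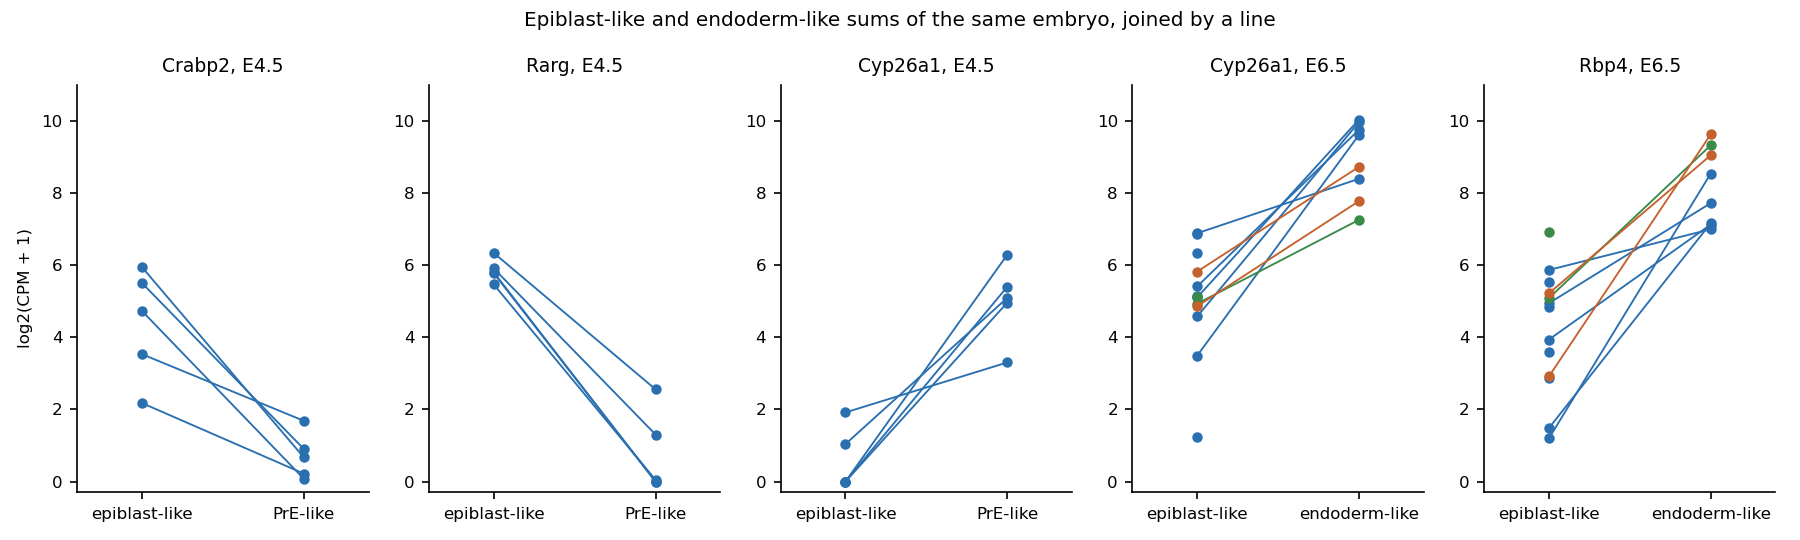
Levels, as log2(CPM + 1), of Crabp2, Rarg and Cyp26a1 at E4.5 and of Cyp26a1 and Rbp4 at E6.5, with a line joining the epiblast-like and the endoderm-like sum of an embryo (blue, plate named; green, E6.5 without a plate name; orange, titled E6.75). At E4.5 the lines of all 5 embryos fall for Crabp2 and Rarg and rise for Cyp26a1 from epiblast-like to PrE-like, and at E6.5 the lines of the 8 paired embryos rise for both genes shown.

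Both receptors were higher in E4.5 epiblast-like than in E3.5 cells, and Rarg differed between the E4.5 lineages as well. The row of Rarg (chr15:102234938-102257517, - strand) stood at 0 in 6 of 10 E3.5 sums, with a highest value of 7.61 CPM. At E4.5 the epiblast-like sums held 79.8, 53.7, 54.7, 43.1 and 58.9 CPM and the PrE-like sums 4.88, 0, 0, 0.033 and 1.47 CPM. All epiblast-like sums were above both the PrE-like and the E3.5 sums.

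Rarg was lower in PrE-like cells with a log2 fold change of -5.49 ± 1.62 (edgeR, adjusted p = 0.02743) and higher in E4.5 epiblast-like than in E3.5 cells by 5.51 ± 1.21 (edgeR, adjusted p = 5.908e-04). The lineage call was lost when embryo 2, 3, 4 or 5 was left out, with adjusted p from 0.0789 to 0.088 (edgeR), while its size stayed between -6.97 and -5.14. E5.5 epiblast-like sums held 16.0 to 29.1 CPM, all under the E4.5 range, with a log2 difference of -1.30 ± 1.18 (edgeR, adjusted p = 0.6223). In E6.5 endoderm-like cells 5 of 8 sums were at 0 and 1 reached 14.4 CPM, against 0 to 25.7 CPM in epiblast-like sums (log2 difference -2.64 ± 1.07; edgeR, adjusted p = 0.07819). When the embryo with 14.4 CPM, embryo 8 of plate P3, was left out, Rarg was called too and the count of genes called at E6.5 rose to 5.

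Rara (chr11:98927818-98974942, + strand, with the small RNA gene Gm22061 inside it) was at 0 in 7 of 10 E3.5 sums. Its E4.5 sums held 25.1, 18.3, 9.16, 3.17 and 26.4 CPM in epiblast-like cells and 7.25, 6.10, 0, 5.68 and 15.0 CPM in PrE-like cells. It was higher than at E3.5 in both, by a log2 fold change of 4.56 ± 1.18 in epiblast-like (edgeR, adjusted p = 0.003464) and 3.29 ± 1.14 in PrE-like cells (edgeR, adjusted p = 0.03247). The second call was lost without E4.5 embryo 1 or 5 (edgeR, adjusted p = 0.0523 and 0.108) and with single wells only (edgeR, adjusted p = 0.148), and was not made with sums of at least 6 cells or with only the 2 classes in the fit. Between the lineages Rara differed by -1.26 ± 1.36 at E4.5 (edgeR, adjusted p = 0.6709) and by -0.98 ± 0.99 at E6.5 (edgeR, adjusted p = 0.543).

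**Figure D4:**
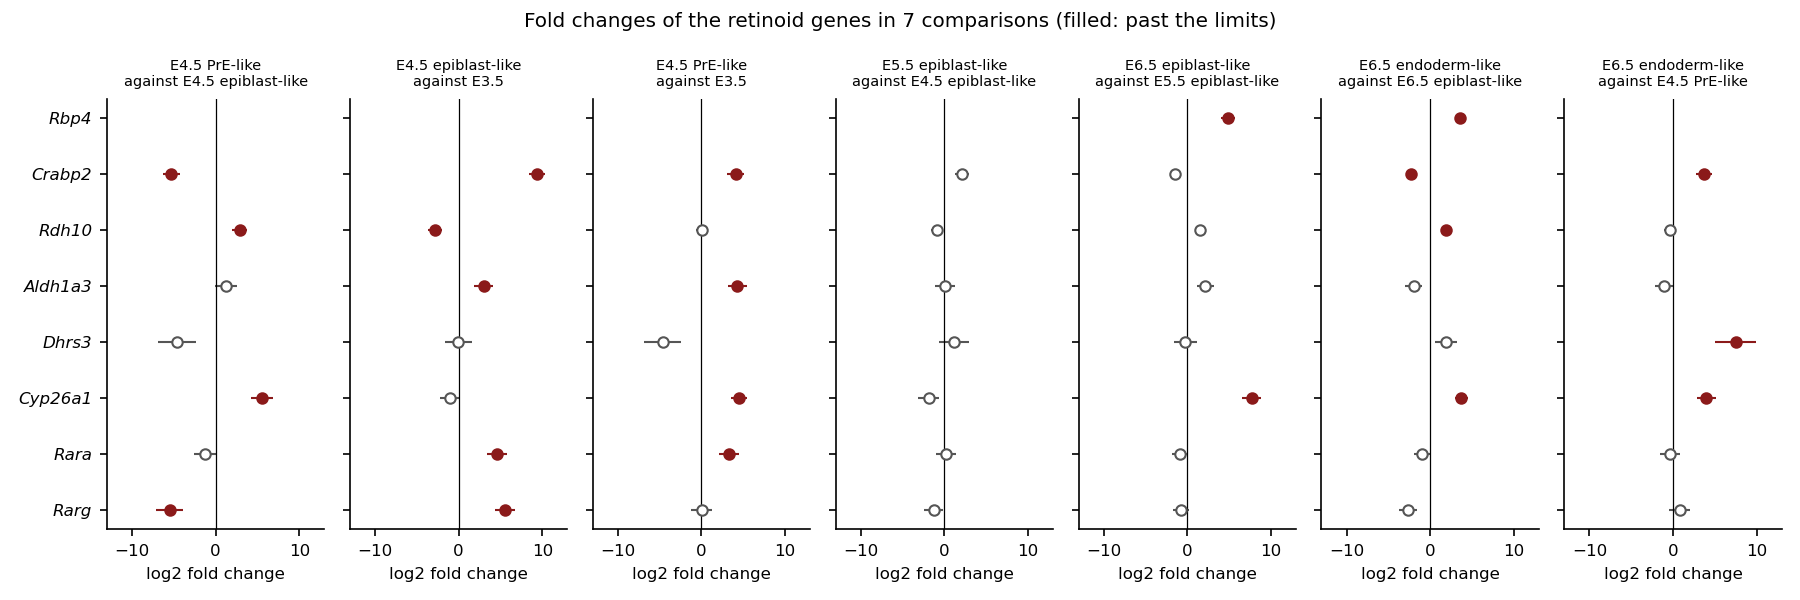
Log2 fold change with its SE for the 8 tested genes in 7 comparisons of embryo sums, filled dark red where the adjusted p and fold limits were passed; comparisons with a group at 0 counts are not drawn. Crabp2 and Rarg lie below 0 and Cyp26a1 and Rdh10 above 0 between PrE-like and epiblast-like cells at E4.5, and Crabp2 lies below 0 and Rbp4, Cyp26a1 and Rdh10 above it between the lineages at E6.5.

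Whether the lineage difference itself changed between E4.5 and E6.5 was tested as an interaction in the same fit. Rbp4, with 0 counts in both E4.5 lineages, gave no estimate, and none of the other 7 genes passed, while 438 of all genes (3.21%) had an adjusted p of at most 0.05. The lowest adjusted p of the set was that of Crabp2, with a log2 difference of 3.05 ± 1.08 between the stages (edgeR, adjusted p = 0.102). At an unadjusted p under 0.05, Crabp2 (0.00648) and Dhrs3 (0.0187) were the genes in question.

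Within wells, doubles included, the retinol carrier and the clearing enzyme were found together in most endoderm-like and primitive streak-like cells of E6.5. At 10 CPM or more, 39 of 45 E6.5 endoderm-like cells held both Rbp4 and Cyp26a1, 6 held Cyp26a1 alone and none Rbp4 alone. In E6.5 epiblast-like cells 40 of 180 held both, 24 Rbp4 alone and 44 Cyp26a1 alone. Of the 25 primitive streak-like cells 22 held both, at a summed 69.7 CPM of Rbp4 and 132 CPM of Cyp26a1. Their sum, from 1 embryo, held 1228 CPM of streak, 2442 CPM of endoderm and 207 CPM of anterior visceral endoderm markers. The medians of the E6.5 epiblast-like sums were 170, 1205 and 61.8 CPM. In the E5.5 epiblast-like class, 66 of 259 wells were labelled double. Crabp2 was held by 222 wells, Rarg by 134 and both by 119. Rara was held by 103 wells, and both Rara and Rarg by 67. Whether genes met in a well more often than by chance was not tested.

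The 45 endoderm-like cells of E6.5 were also divided by Cer1, an inhibitor secreted by the anterior visceral endoderm, at 10 CPM. The 24 cells with Cer1 had a median of 526 CPM of Cyp26a1, and the 21 without it 297 CPM. For Rbp4 the medians were 166 and 262 CPM, and for Rdh10 3.54 and 82.0 CPM. Rdh10 was thus at 10 CPM or more in 11 of 24 cells with Cer1 and in 17 of 21 without. Of Dhrs3, the cells with Cer1 held 292 counts and the others 5, and of Crabp2 35 and 724 counts. These are raw counts, and the median of both genes was 0 CPM in either group. The top 3 of the 45 cells held 82.5% of the counts of Dhrs3 and 84.8% of those of Crabp2. Of the cells with Cer1, 3 of 24 lacked a plate name, and of the others 10 of 21 did. On plates P1 to P3 alone (21 and 11 cells), the Rbp4 medians were 164 and 158 CPM, so the order of the pooled medians was not seen there. The medians of Cyp26a1 were then 712 and 422 CPM and those of Rdh10 0 and 37.7 CPM, with 8 of 21 and 8 of 11 cells at 10 CPM or more. Without a plate name (3 and 10 cells), the medians were 769 and 749 CPM for Rbp4, 268 and 245 CPM for Cyp26a1 and 79.3 and 124 CPM for Rdh10. Counts of Dhrs3 were 291 and 5 on plates P1 to P3 and 1 and 0 without a plate name. Those of Crabp2 were 31 and 372 on plates P1 to P3 and 4 and 352 without a plate name. This division by batch was added after seeing the data. Hhex, a second gene of the anterior visceral endoderm, was at a median of 53.1 CPM in the first group and 0 in the second. Each group held cells of 9 embryos, the cells of an embryo are not independent, and these values were not tested.

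**Figure D5:**
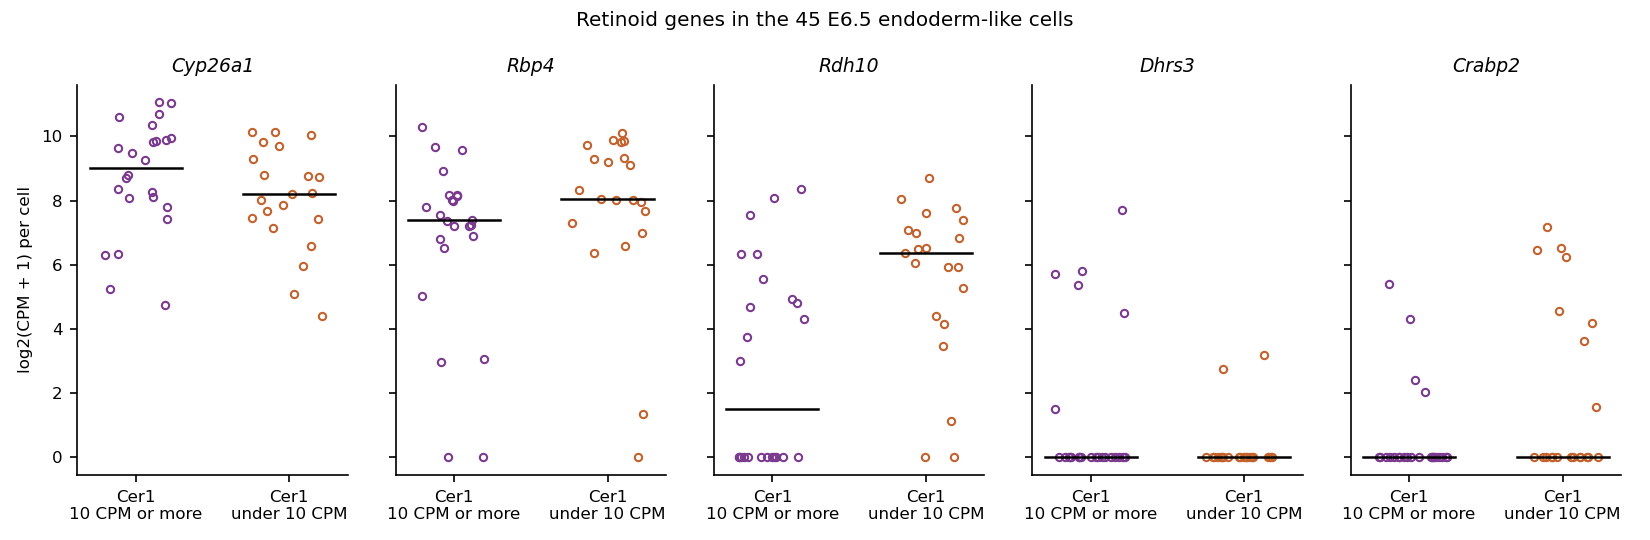
Level per cell, as log2(CPM + 1), of Cyp26a1, Rbp4, Rdh10, Dhrs3 and Crabp2 in the 45 E6.5 endoderm-like cells, divided into 24 cells with Cer1 at 10 CPM or more and 21 cells under it, with a bar at the median. The medians of Rdh10 are 3.54 and 82.0 CPM (0 and 37.7 CPM on plates P1 to P3), and Dhrs3 is at 10 CPM or more in 5 cells, all with Cer1.

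Per kilobase of exon, the order of the genes changed from class to class. Rdh10 had the highest mean at E3.5 (25.0 CPM per kb) and in E4.5 PrE-like cells (25.3, with Cyp26a1 next at 19.2). In E4.5 epiblast-like cells Crabp2 (21.8 ± 17.8 CPM per kb, SD, n = 5) was followed by Rarg (13.6 ± 3.16), and their ranges over embryos overlapped. In E6.5 epiblast-like cells Crabp2, Cyp26a1 and Rbp4 stood at 33.6 ± 15.8, 23.3 ± 18.3 and 22.3 ± 23.8 CPM per kb (SD, n = 13), again with overlapping ranges. In E6.5 endoderm-like cells Cyp26a1 (303 ± 181 CPM per kb) and Rbp4 (273 ± 191) led (SD, n = 8), and their ranges overlapped as well.

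Over the 49 sums, genes were ranked by Pearson's correlation of log2 levels with each of the genes, as a description, since the sums share stages, classes and embryos. Rbp4 was most like Apob (0.955), Afp (0.949) and Prss12 (0.93). Cyp26a1 was most like Clic6 (0.902), Lhx1 (0.891) and Spink3 (0.884), and Crabp2 most like Nav2 (0.909), Ifitm1 (0.893) and Syce2 (0.885). For Rarg the nearest genes were 2900041M22Rik (0.843), 6330407J23Rik (0.833) and Ifitm3 (0.819), and for Rara Myl7 (0.76), C2cd3 (0.743) and Ifitm1 (0.725). Rdh10 was nearest to Timd2 (0.756), Snx2 (0.75) and Mfsd1 (0.739), and Aldh1a3 to Mettl7a3 (0.783), Cxcr2 (0.716) and Gm3200 (0.675). In a second clustering, Mettl7a3 and Cxcr2 were among the top genes of an E6.5 cluster of 81 cells, all without a plate name. Dhrs3 had the lowest likeness to any gene, with Syt12 at 0.593, Cd8a at 0.588 and Mllt3 at 0.553. Between genes of the set the highest values were 0.784 for Rbp4 and Cyp26a1 and 0.693 for Crabp2 and Rarg, and the lowest were -0.558 for Rdh10 and Rarg and -0.552 for Crabp2 and Rdh10.

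Other genes of the pathway were read from a list of 43, of which 42 had a row and 26 could be tested. In the 7 comparisons above, in the order in which they were introduced, 4 of the 26 (6.06% of all genes), 6 (20.4%), 10 (18.9%), 2 (5.5%), 5 (8.23%), 8 (14.7%) and 7 (12.3%) were called. The median log2 fold change of the 26 was 0.08 between the E4.5 lineages (0.04 over all genes) and -0.05 between the E6.5 lineages (-0.18 over all genes). Ttr, the transthyretin that holds RBP4 in blood, was already detected at E4.5, where Rbp4 was not. It was at 0 counts at E3.5, 2.08 ± 2.45 CPM in E4.5 epiblast-like and 70.6 ± 25.1 CPM in E4.5 PrE-like cells (SD, n = 5 each), and it differed between these lineages by 4.85 ± 1.18 on the log2 scale (edgeR, adjusted p = 0.007589). At E6.5 Ttr was at 3774 ± 2019 CPM in endoderm-like (SD, n = 8) and 648 ± 959.9 CPM in epiblast-like cells (SD, n = 13), and the difference was 2.54 ± 0.67 (edgeR, adjusted p = 0.008243). Ttr also rose in epiblast-like cells between E5.5 and E6.5 by 7.20 ± 0.98 (edgeR, adjusted p = 1.898e-06), in the same comparison in which Rbp4 and Cyp26a1 rose. The E6.5 epiblast-like sums held 32.0 to 3659 CPM of Ttr and 633 to 3354 CPM of the summed endoderm markers. The part of endoderm RNA in this rise was not tested.

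Stra6, the membrane receptor for RBP4, stood at 20.3 CPM in the PrE-like class and at 0 counts in the epiblast-like class of E4.5 (edgeR, adjusted p = 0.01543). Aldh1a1, a further enzyme that makes retinoic acid, was at 6.78 to 21.6 CPM in the 5 PrE-like sums and at 0 counts in every later class (edgeR, adjusted p = 8.043e-04 for E6.5 endoderm-like against PrE-like cells). Fabp5, which can also carry retinoic acid, was lower in E6.5 endoderm-like than epiblast-like cells, at 97.2 against 468.5 CPM (-2.27 ± 0.36; edgeR, adjusted p = 1.432e-05). The other clearing enzymes, Cyp26b1 and Cyp26c1, stayed at or under 3.82 CPM in every sum and were not tested. Of 9 known targets of retinoic acid, 6 could be tested, of which 0, 2, 0, 1, 2, 2 and 1 were called in the same order of comparisons. Between the E6.5 lineages these were 2 of 6 (14.7% of all genes). Nr2f2 was at 14.4 CPM in E6.5 endoderm-like and 0.973 CPM in epiblast-like cells (3.88 ± 1.34; edgeR, adjusted p = 0.03813), and Meis2 was lower there, at 0.172 against 5 CPM (-4.64 ± 1.56; edgeR, adjusted p = 0.03194).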

How the data were processed

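The deposited table gives, for each gene in each cell, its raw count of reads. Per the labels, the authors trimmed reads with Trim Galore 0.4.3 and aligned them to GRCm38 with HISAT2 2.0.5; genes were counted in SeqMonk, the library kit marks no strand, and cells with few genes or much mitochondrial RNA were dropped before deposition. Reads carry no molecular identifiers. Intervals on shares cover counting error only, since they treat pooled cells as independent and leave out differences between embryos. Of the 180 E6.5 epiblast-like cells, 54 came from embryo 1 titled E6.75. Stage, embryo and plate were read from the titles; 9 E3.5 cells without an embryo number were taken as 1 embryo, and 82 cells with the title E6.75 were counted as E6.5.

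Cells were clustered within each stage by a consensus of k-means (50 starts, 4 seeds, genes found in 6 to 94% of cells) after 60 rows of retinoid genes and targets were held out, and clusters were named from the marker lists. E3.5 was kept as 1 class. A second clustering (Ward) gave the same class to 99 of 99, 105 of 105, 266 of 267 and 245 of 250 cells, from the first stage to the last. Where an embryo had 3 or more cells of a class, their counts were summed. Doubles were kept, and singles alone were an alternative.

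The 49 sums entered 1 fit of edgeR 4.0.16 in R 4.3.3 (TMM, filterByExpr, glmQLFit, glmQLFTest, Benjamini-Hochberg over 13654 genes). A gene was called if its adjusted p did not exceed 0.05 and its log2 fold change was over 1, or over 2 between the E4.5 lineages. The SE was taken from the fold change and its F statistic. CPM were computed from the summed counts with TMM factors. Shares of cells used 10 CPM, with exact 95% binomial intervals. After thinning each cell to 150000 counts (9 cells left out), cells with any count were taken. The 5 shares checked were Crabp2 in E5.5 and Rarg in E4.5 epiblast-like, Rdh10 in E4.5 PrE-like, and Cyp26a1 and Rbp4 in E6.5 endoderm-like cells. They stayed inside their intervals. In E6.5 epiblast-like cells, Rbp4 left its interval (35.6%, 28.6 to 43.0%) at 43.4%, and Rara (22.2%, 16.4 to 29.0%) at 37.1%. So did Rarg (32.8%, 26.0 to 40.2%) at 42.3% and Dhrs3 (2.78%, 0.908 to 6.36%) at 6.86%. Aldh1a3 left its interval in E4.5 (17.2%, 5.85 to 35.8%) and E5.5 epiblast-like cells (12.0%, 8.28 to 16.6%), at 41.4% and 22.5%. Crabp2 did so in primitive streak-like cells (52.0%, 31.3 to 72.2%) at 73.9%. The fit was tested on simulated data. The alternatives were DESeq2 1.42.0, relative log expression factors, no filter on low counts, only the 2 classes compared, single wells only, sums of at least 1 or 6 cells, Ward classes, other embryo and stage labels, batches and leaving out each embryo. Embryos that gave both lineages are the same animal, so pairing comes from the design: 5 pairs at E4.5 and 8 at E6.5, with the deviations of same-embryo sums correlated at 0.015 to 0.108 and 0.043 to 0.158.

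The 9 genes, the gene lists and the tests were chosen with earlier results of these data known. All 9 genes are named, with Ttr and other pathway genes that were called; 1 further gene of the pathway list is not reported here by name. Gene positions are from GENCODE (GRCm38) and promoters from RefSeq (GRCm38.p6).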

Additional observations from a re-analysis of the deposited data

Results flagged for a closer look

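In 57 groups of 4 to 10 embryo sums, the highest or lowest sum was compared with the range of its group by Dixon's criterion. Its rate of about 1 in 20 groups holds for normally distributed values, which these CPM, often at 0, are not. 16 groups met it, each through a high sum, and in 6 of them every other sum was at 0. Such a group meets the criterion by construction, so 16 of 57 cannot be set against that rate. All levels below are in CPM, with the nearest other sum of the same group beside each.

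At E3.5, where these genes were at or near 0, Crabp2 was at 0.211 in embryo 9 (others 0), Dhrs3 at 7.16 in embryo 7 (nearest 1.51), Cyp26a1 at 10.9 in embryo 6 (nearest 2.75), Rarg at 7.61 in embryo 6 (nearest 3.14) and Rara at 3.75 in embryo 8 (nearest 1.74). All 5 values come from plate P9, and embryo 6 appears for both Cyp26a1 and Rarg. The sums of plate P9 hold 11 to 28 cells and those of plate P8 3 or 4. At E3.5, 1 cell held 85.2% of all counts of Cyp26a1, and 1 cell held 52.1% of those of Rarg.

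At E4.5, Aldh1a2 was at 3.34 in the epiblast-like sum of embryo 4 (others 0), Aldh1a3 at 8.85 in that of embryo 2 (nearest 3.79) and Dhrs3 at 4.94 in that of embryo 1 (others 0). In PrE-like cells Dhrs3 was at 0.184 in embryo 3 (others 0), which is a single count. At E5.5, Aldh1a2 stood at 0.230 in the epiblast-like sum of embryo 9 (others 0) and Cyp26a1 at 1.85 in that of embryo 1 of plates P2 and P3 (nearest 0.0769). That embryo also had the highest Ttr of the E5.5 epiblast-like sums, 23.2.

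At E6.5, Rara was at 50.4 in the epiblast-like sum of embryo 7 of plate P3 (nearest 14.9), and Aldh1a2 at 2.55 in that of E6.75 embryo 1 (others without a plate name 0). In endoderm-like sums, Crabp2 was at 43.0 in embryo 1 without a plate name (nearest 14.3), Rara at 16.9 in E6.75 embryo 1 (nearest 7.55) and Rarg at 14.4 in embryo 8 of plate P3 (nearest 3.07). The causes were not tested.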

How the results depend on the processing

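24 calls on single genes were recomputed under their alternatives, 561 values in all: 480 kept direction and call, 81 kept direction and lost the call, and 0 reversed. Of 190 recomputed counts of genes called, 157 were within 1.5 times the value reported. With single wells only, E4.5 epiblast-like against E3.5 had 3 genes called and PrE-like against E3.5 2. With sums of at least 6 cells, E4.5 epiblast-like against E3.5 had 3, E6.5 against E5.5 epiblast-like 5, and E6.5 endoderm-like against epiblast-like 2. The last had 2 without cells titled E6.75 and 1 with embryos without a plate name only. With only the 2 classes in the fit, PrE-like against E3.5 had 1, E5.5 against E4.5 epiblast-like 2 and E6.5 endoderm-like against PrE-like 2. DESeq2 called 1 between E5.5 and E4.5 epiblast-like cells. The call of Aldh1a3 between E6.5 epiblast-like sums without and with a plate name fell to 0 with relative log expression factors, no filter, single wells, sums of at least 1 cell, without E6.75, and with embryos 1 and 2 merged and left out. Leaving out 1 embryo gave 2 to 3 genes between E4.5 lineages, 4 to 5 and 3 to 4 against E3.5 for epiblast-like and PrE-like, 0 to 1 between E5.5 and E4.5 epiblast-like (1 without embryo 1 of plates P2 and P3), 2 to 2 between E6.5 and E5.5, 3 to 5 between E6.5 lineages, 3 to 4 between E6.5 endoderm-like and PrE-like, and 0 to 1 by plate name. With the embryo as a replicate block, 4 genes of the set were called at E4.5 and 3 at E6.5, where Rdh10 was lost, and over all genes 1038 and 672 were called against 912 and 577 on the same pairs without it, a fit added after seeing the data. No other call changed with the block. Relative log expression factors moved the median log2 fold change of all genes by 0.119 between the E6.5 lineages. The causes were not tested. E6.5 endoderm-like sums hold 3 to 9 cells and E4.5 epiblast-like sums 4 to 7, which limits their precision.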
